A study of Salmo salar with 8 samples.

Results

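The comparison described here sets Atlantic salmon (Salmo salar) gill of fish on a short photoperiod, called T2, against gill of parr held in constant light, called T1. It took every library of these groups, 2 at T2 and 2 at T1, which is 4 of the 8 libraries and 9866 of the 19709 nuclei in the series. By the labels, the T2 fish had spent 8 weeks on days of 8 h light and 16 h dark, in freshwater. The methods text of the study counts a somewhat shorter stay on short days before T2 sampling. There the remaining fish stayed on short days for some days more, so the 8 weeks is uncertain for the T2 fish. The T1 fish were parr that had stayed in constant light, also in freshwater. All fish were of the Aquagene strain, and the T2 fish were older than the T1 fish and had been moved to other tanks, so age, tank and day length cannot be told apart. The other 4 libraries, T3 (returned to constant light for 8 weeks) and T4 (24 h in seawater after that), were used only for the shared estimate of spread and as further levels. The labels do not say whether a library is 1 fish, and p-values measure only the spread between these libraries, which may be partly technical.

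Young salmon live in rivers as parr and become smolts able to live in the sea. A period of short days followed by long days sets this change in motion, and the gill is where much of it takes place. The gill exchanges gas and ammonia, moves salt through ionocytes (mitochondrion-rich cells), and is a mucosal surface lined by pavement cells and patrolled by leukocytes. Light also entrains the circadian clock, a loop in which activators of the Clock and Bmal family are held back by Per and Cry proteins and by nuclear receptors of the Nr1d group.

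The measure was single-nuclei RNA sequencing, in which each molecule is counted by a unique molecular identifier (UMI). UMIs were summed over all nuclei of a library and are given as CPM, a level relative to the UMI total of the library, with libraries scaled to each other by the TMM method. The sums were 2850790 and 4033968 UMIs in the T2 libraries and 3730457 and 2894923 in the T1 libraries. T2 replicate 2 stood apart. Nuclei with 2500 or more detected genes held 8.43% and 47.0% of the UMIs of T2 replicates 1 and 2, against 23.9% and 26.8% of those of T1 replicates 1 and 2. At most 6 barcodes were shared by any 2 libraries of the series. Nuclei in which 200 or more but under 2500 genes were detected numbered 18844 in the series and 9415 in the T2 and T1 libraries together. In summed nuclei, fewer cells of a type and less RNA per cell cannot be told apart.

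Very few genes separated short photoperiod from constant light once the spread between libraries was taken into account. Of 24815 genes tested with edgeR's quasi-likelihood test, 3 passed a Benjamini-Hochberg adjusted p of 0.05 (0.0121%), with 2 higher at T2 (0.00806%) and 1 lower (0.00403%). At an unadjusted p under 0.05 there were 1751 genes (7.06%), of which 706 were higher (2.85%) and 1045 lower (4.21%). Both T2 libraries lay above both T1 libraries for 3894 genes (15.7%) and below them for 4450 genes (17.9%). The median log2 fold change over all genes tested was -0.02. DESeq2, run on the same counts, called 58 genes (0.234%), 34 higher and 24 lower. None of the 3 genes called by edgeR has a name in the gene tables used, so all 3 are given by their locus identifiers, and they fall outside the rule for named genes and were picked out after their values were seen.

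**Figure D1:**
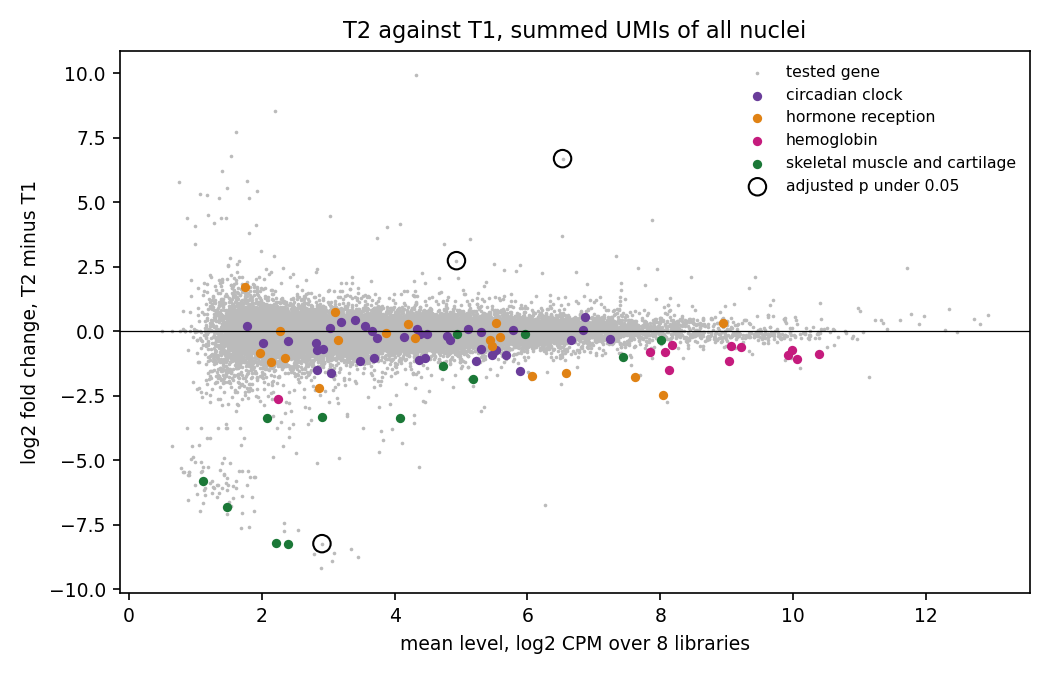
Log2 fold change (T2 minus T1) of every tested gene against its mean level in log2 CPM over 8 libraries, with members of 4 gene lists coloured and the 3 genes past an adjusted p of 0.05 ringed. Most genes scatter around a median of -0.02, and the hemoglobin and muscle genes lie mainly below 0.

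LOC106598333 rose most clearly. It had 157 and 199 CPM in the T2 libraries, against 1.73 and 1.63 CPM in the T1 libraries, from 431 and 763 UMIs against 6 and 5. Its log2 fold change was 6.69 ± 0.33 (SE, adjusted p 2.45e-05, edgeR), and the groups were far from overlapping. The gene stayed at 87.0 and 63.3 CPM at T3 and at 119 and 105 CPM at T4, so the T1 libraries were the only ones of the 8 with under 2 CPM. LOC106598560 rose to 51.5 and 46.9 CPM at T2, against 7.80 and 6.84 CPM at T1, a log2 fold change of 2.74 ± 0.27 (SE, adjusted p 0.0112, edgeR). Its levels at T3 and T4 lay between 25.8 and 36.7 CPM. LOC106590197 was not listed in either T2 library (0 and 0 UMIs) and had 32 and 40 UMIs, or 9.24 and 13.0 CPM, in the T1 libraries (adjusted p 0.0445, edgeR). Count tables list a gene only if at least 3 nuclei of the library hold it. A 0 over a whole library, here and below, can therefore hide UMIs in fewer than 3 nuclei. Set against a floor of 3 UMIs over both T2 libraries, LOC106590197 was 24.2-fold lower at T2. UMIs hidden in unlisted genes can exceed that floor, so such folds are not lower bounds. LOC106590197 was again at 6.15 to 11.5 CPM at T3 and T4.

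The call of LOC106598333 was kept under every alternative, with log2 fold changes from 6.42 to 6.85. That of LOC106598560 was lost without T1 replicate 1, T1 replicate 2 or T2 replicate 1 (adjusted p 0.0588, 0.0621 and 0.0562, edgeR). That of LOC106590197 was lost without T1 replicate 2, T2 replicate 1 or T2 replicate 2 (adjusted p 0.0776, 0.138 and 0.0914, edgeR) and in fits to the T2 and T1 libraries alone (adjusted p 0.0634).

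Just outside the threshold lay 9 genes with adjusted p from 0.0769 (LOC106611944) to 0.0912 (LOC106583653 and LOC106603358, edgeR), among them the chemokine gene CCL20 (LOC106596271) and IRGC (LOC106580271). The other 7 have no name and, being outside the rule for named genes, are given because of their adjusted p. LOC106611944 had 508 and 1115 CPM at T2, against 40.7 and 41.0 CPM at T1. LOC106580506 had 28.8 and 26.6 CPM at T2, against 95.6 and 86.0 CPM at T1. LOC106576268 had 161 and 168 CPM at T2, against 44.5 and 20.5 CPM at T1. These loci can be described only by their levels. LOC106603358 had 36.1 and 39.6 CPM at T2, against 122 and 114 CPM at T1. LOC106603916 had 36.5 and 48.2 CPM at T2, against 8.96 and 11.4 CPM at T1. LOC106580378 had 0 and 0 UMIs at T2 and 18 and 31 UMIs at T1. LOC106583653, with 124 and 103 UMIs at T2 and 0 and 0 at T1, was 75.2-fold higher at T2 against a floor of 3 UMIs over both T1 libraries. For all 9 the T2 and T1 libraries did not overlap, which largely follows from picking genes by low p. Over all genes, both T2 libraries were above both T1 libraries for 15.7% and below them for 17.9%.

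**Figure D2:**
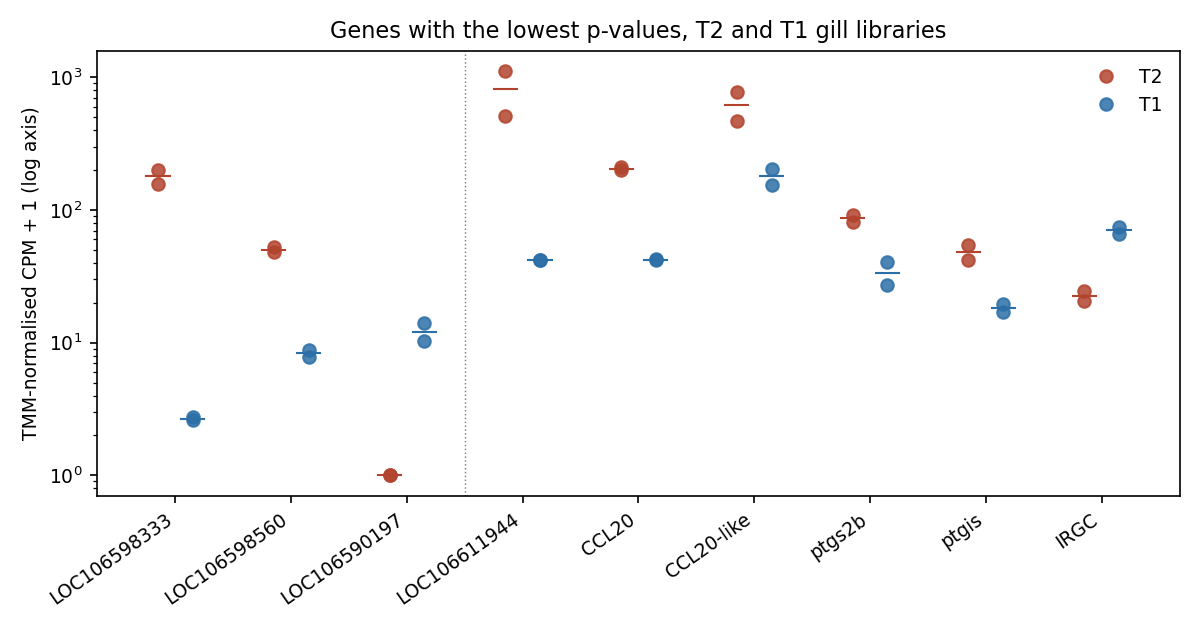
TMM-normalised CPM plus 1 (log axis) of 9 genes in each T2 library (left, red) and T1 library (right, blue), with the mean as a bar; the 3 genes left of the dotted line passed an adjusted p of 0.05 with edgeR. LOC106598333 sits at 157 and 199 CPM at T2, against 1.73 and 1.63 CPM at T1. The other genes also do not overlap between groups, but all were picked after their values were seen.

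Among the genes that DESeq2 called and edgeR did not were 2 chemokine loci and 2 enzymes of prostaglandin synthesis, all higher at T2. These genes were chosen here after their values were seen. In simulated data over all nuclei, DESeq2 found 140 of 197 changed genes and made 44 false calls. There edgeR found 127 of the 197 and made 13 false calls. Genes called by DESeq2 alone, here and below, are therefore less secure than their adjusted p implies. CCL20 attracts dendritic cells and lymphocytes to mucosal surfaces. The CCL20 gene had 210.2 and 198 CPM at T2, against 41.6 and 40.7 CPM at T1 (log2 fold change 2.31 ± 0.32, SE, adjusted p 0.0879 with edgeR and 1.16e-08 with DESeq2). A second locus, CCL20-like (LOC106570861), had 469.6 and 775 CPM at T2, against 203 and 154 CPM at T1 (1.80 ± 0.34, adjusted p 0.186 with edgeR and 3.30e-05 with DESeq2). Its levels at T3 and T4 were 25.2 to 47.8 CPM, below those of both T1 libraries. The cyclooxygenase gene ptgs2b had 79.9 and 90.9 CPM at T2, against 39.3 and 26.1 CPM at T1 (adjusted p 0.130 with edgeR and 0.00462 with DESeq2). The prostacyclin synthase gene ptgis had 53.6 and 40.9 CPM at T2, against 18.5 and 16.0 CPM at T1 (adjusted p 0.127 with edgeR and 0.0157 with DESeq2).

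Other named genes that only DESeq2 called higher at T2 were ccnd1 (cyclin D1, which drives entry into the cell cycle), NQO1 (a quinone reductase of the oxidative stress response), the cadherin gene cdh26.2, the peroxidase gene mpx, nkx31, ddt4l, PINLYP, GPRC6A and GALNT8. ccnd1 had 208 and 156 CPM at T2, against 91.6 and 87.3 CPM at T1. NQO1 had 589 and 685 CPM at T2, against 331 and 308 CPM at T1. cdh26.2 had 541 and 237 CPM at T2, against 146 and 108 CPM at T1. The adjusted p of these 9 genes ran from 0.182 to 0.464 with edgeR. Of the genes that DESeq2 called lower, msmb had 43.4 and 33.4 CPM at T2, against 122 and 107 CPM at T1, and IRGC, of the immunity-related GTPase family, had 23.4 and 19.5 CPM at T2, against 74.0 and 64.8 CPM at T1.

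Circadian clock genes leaned lower at T2. The methods text of the study gives no hour of sampling, so a shift in daily timing and a change in level cannot be told apart. Of 37 clock genes tested, none passed the adjusted threshold, 10 were lower and 1 higher at an unadjusted p under 0.05 (over all genes 4.21% were lower and 2.85% higher), and the list's median log2 fold change was -0.33, against -0.02 over all genes tested. Both T2 libraries were below both T1 libraries for 14 of the 37 (17.9% over all genes) and above them for 1 (15.7%). The lowest p-values belonged to members of the repressing arm and to output genes, which make up most of the list. CRY1, a repressor of the loop, had 12.8 and 17.7 CPM at T2, against 52.0 and 37.5 CPM at T1 (-1.54 ± 0.47, SE, adjusted p 0.519, edgeR). CIART, another repressor, had 6.20 and 5.47 CPM at T2, against 13.0 and 13.0 CPM at T1 (-1.16 ± 0.30, adjusted p 0.410, edgeR). The output gene TEF (LOC106607162) had 23.4 and 30.2 CPM at T2, against 50.3 and 51.8 CPM at T1 (-0.92 ± 0.32). In all of these the groups did not overlap.

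The other clock genes lower at an unadjusted p under 0.05 were a further TEF locus, HLF, per1b, an NFIL3-like gene and 3 genes of the Nr1d group, with log2 fold changes from -1.62 to -0.71. The NR1D1-like gene (LOC106583303) had 14.6 and 26.1 CPM at T2, against 59.2 and 31.6 CPM at T1, and per1b had 34.7 and 31.8 CPM at T2, against 56.6 and 51.8 CPM at T1. The exception was bhlhe40, a repressor that light and other stimuli induce, with 181 and 140.4 CPM at T2, against 109 and 111 CPM at T1 (0.55 ± 0.24, adjusted p 0.707, edgeR). The count of 10 lower genes was 2 without T1 replicate 1, 3 without T2 replicate 1, 11 without T1 replicate 2 and 8 without T2 replicate 2.

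Several genes on the list of hormone reception had lower levels at T2. The list holds receptor genes and response genes, and the 6 with the lowest p are response genes, not receptors. T1 replicate 1 was the highest of the 4 T2 and T1 libraries for each of these 6. Cortisol acts in the gill through the glucocorticoid receptor, and tsc22d3, fkbp5 and sgk1 are classical targets of that receptor in mammals. No list of such targets was tested as a group. Of 20 genes of hormone reception tested, none passed the adjusted threshold, and 6 were lower and 0 higher at an unadjusted p under 0.05 (over all genes 4.21% were lower and 2.85% higher), with a median log2 fold change of -0.34. TSC22D3 (LOC106604170) had 47.8 and 66.7 CPM at T2, against 527 and 105 CPM at T1 (-2.46 ± 0.81, SE, adjusted p 0.565, edgeR). The other tsc22d3 locus (LOC106612265) had 60.2 and 82.6 CPM at T2, against 347 and 139 CPM at T1 (-1.76 ± 0.52, adjusted p 0.494, edgeR). fkbp5 had 12.8 and 13.3 CPM at T2, against 56.9 and 29.6 CPM at T1, and FKBP5 (LOC106565346) had 14.6 and 22.7 CPM at T2, against 80.6 and 34.2 CPM at T1. Libraries of a group also differed from each other later on, with 137 and 415 CPM of TSC22D3 (LOC106604170) at T3 and 163 and 652 CPM at T4.

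These groups did not overlap, but the T1 libraries differed from each other by more than the T2 libraries did. SGK1 (LOC106570356) had 2.19 and 2.08 CPM at T2, against 16.8 and 2.93 CPM at T1, and CISH, a target of the growth hormone pathway, had 2.92 and 2.35 CPM at T2, against 8.09 and 3.91 CPM at T1. Another SGK1 locus, LOC106591125, was not among the 6 and had 28.8 and 27.4 CPM at T2, against 52.9 and 30.6 CPM at T1. Without T1 replicate 1 the count of 6 lower genes was 0, without T2 replicate 1 it was 1, without T2 replicate 2 it was 3 and without T1 replicate 2 it was 7.

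**Figure D3:**
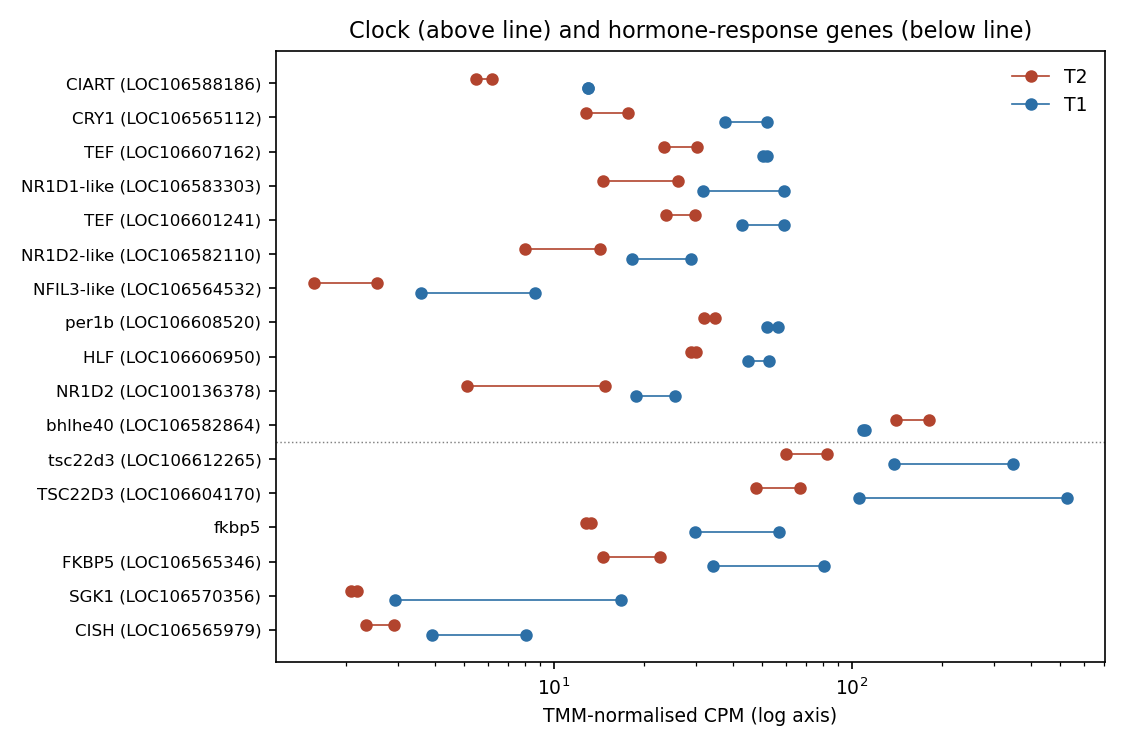
TMM-normalised CPM (log axis) of 11 clock genes and 6 hormone-response genes, each with the 2 T2 libraries (upper pair, red) and the 2 T1 libraries (lower pair, blue). The T2 libraries lie left of both T1 libraries for all shown but bhlhe40, which lies to the right, and the T1 pair of TSC22D3 (LOC106604170) spreads from 105 to 527 CPM.

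Ion transport genes of ionocytes were mostly lower at T2 or did not separate. Of 28 tested, none passed the adjusted threshold, 7 were lower and 0 higher at an unadjusted p under 0.05 (4.21% and 2.85% over all genes), both T2 libraries were below both T1 libraries for 15 (17.9% over all genes), and the median log2 fold change was -0.36. The cotransporter gene nkcc1a, of the basolateral salt uptake step in seawater-type ionocytes, had 83.9 and 54.5 CPM at T2, against 122 and 125 CPM at T1 (-0.84 ± 0.26, SE, adjusted p 0.543, edgeR). The chloride channel gene CFTR had 28.1 and 33.6 CPM at T2, against 26.001 and 28.7 CPM at T1. A carbonic anhydrase 4-like gene (LOC106569487) was low in both groups, at 1.82 and 2.87 CPM at T2, against 21.7 and 11.1 CPM at T1 (adjusted p 0.284 with edgeR and 0.0395 with DESeq2), and had 298 to 706 CPM at T3 and T4. slc12a3, a NaCl cotransporter of freshwater ionocytes, had 15.7 and 12.2 CPM at T2, against 19.6 and 28.3 CPM at T1, and fxyd8, of the FXYD family of transport regulators, had 2.55 and 1.04 CPM at T2, against 14.2 and 2.61 CPM at T1. slc26a6.1 and slc26a6.2, which is not on this list, are anion exchangers. Neither was listed in a T2 library. They had 3 to 6 UMIs in each T1 library, close to the listing limit of 3 nuclei, so their absence at T2 may come from that limit. The list's count of 7 was 3 without T2 replicate 2.

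The share of ionocytes moved alongside. Nuclei with 2 or more UMIs of the ionocyte markers, and more of these than of the T cell or pavement cell markers, made up 9.96% and 11.2% of the T2 libraries and 14.2% and 23.6% of the T1 libraries. Nuclei of 500 or more UMIs were then thinned to 500 UMIs, and the others were left out. This kept 2663 of 3373 and 1743 of 1748 nuclei at T2. At T1 it kept 2754 of 2763 and 1975 of 1982. The ionocyte shares of the kept nuclei were 9.39% and 8.20% at T2 and 12.2% and 17.9% at T1. Before thinning, median depths of ionocyte-gated nuclei were 684 and 1710 UMIs at T2 and 961 and 1214 UMIs at T1. The shares were not tested, and an exact permutation test of 2 libraries against 2 could not go below p = 0.333. Their part in the gene differences was not tested.

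Hemoglobin and muscle genes were also at lower levels at T2. The listed hemoglobin genes, which mark erythrocytes, summed to 4302 and 3282 CPM (of all UMIs of a library, without TMM scaling) at T2 and 6892 and 7359 CPM at T1. The list is not complete, since a further locus named HBE1, LOC100136576, was not on it. All 12 tested genes of the list had negative log2 fold changes, with a median of -0.84. Both T2 libraries were below both T1 libraries for 11 (17.9% over all genes). None passed the adjusted threshold with edgeR, and 7 were lower at an unadjusted p under 0.05 (4.21% over all genes), a count that was 1 without T2 replicate 2. HBE1 (LOC106601074) had 86.1 and 103 CPM at T2, against 333 and 206 CPM at T1 (-1.51 ± 0.42, SE, adjusted p 0.476 with edgeR and 0.0264 with DESeq2). The 2 erythrocyte markers other than hemoglobin went opposite ways and had a median log2 fold change of -0.08. The heme synthesis gene alas2 had 50.4 and 55.8 CPM at T2, against 68.8 and 67.1 CPM at T1. The transcription factor gene gata1 had 11.3 and 10.2 CPM at T2, against 9.24 and 9.45 CPM at T1.

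Of 13 skeletal muscle and cartilage genes tested, 9 were lower and 0 higher at an unadjusted p under 0.05 (4.21% and 2.85% over all genes). None of them passed the adjusted threshold with edgeR. The median log2 fold change was -3.34, or -2.12 with genes at 0 UMIs at T2 set at the floor of 3 UMIs. The list summed to 422 and 241 CPM at T2 and 550 and 719 CPM at T1, on the same unscaled basis. The myosin gene MYH6 (LOC106589989) had 0 and 0 UMIs at T2 and 21 and 50 UMIs at T1, 23.8-fold lower at T2 against that floor. The muscle creatine kinase gene ckm2 had 1.09 and 1.04 CPM at T2, against 5.20 and 17.3 CPM at T1. otos (otospiralin) had 20.8 and 13.0 CPM at T2, against 60.4 and 61.9 CPM at T1 (-1.87 ± 0.31, SE, adjusted p 0.134 with edgeR and 9.00e-04 with DESeq2), and the bone matrix gene spp1 had 117 and 125 CPM at T2, against 237 and 241 CPM at T1. DESeq2 also called strip2, the myosin light chain gene MYLPF and the actin gene ACTC1 (2 loci) lower. The count of 9 was 5 without T1 replicate 2 and 5 without T2 replicate 2. The part of blood or muscle content in the other differences was not tested. With the listed hemoglobin genes left out of the counts, edgeR called 3 genes. This is no test of blood content, since these genes held only 3282 to 7359 CPM of each T2 or T1 library.

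**Figure D4:**
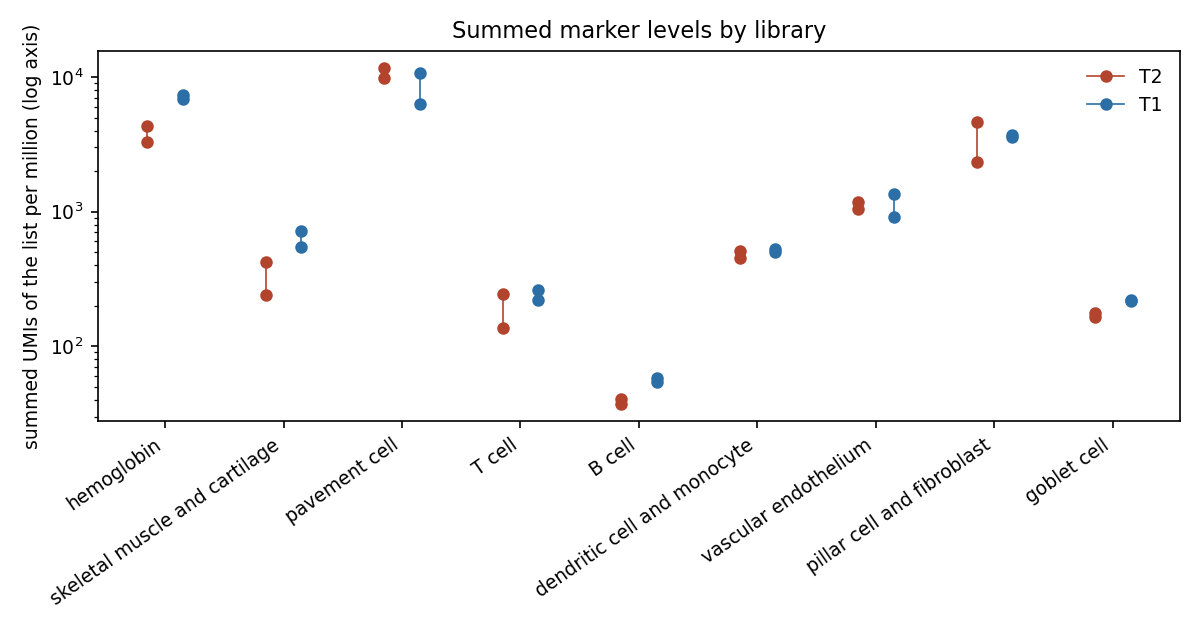
Summed CPM (without TMM scaling) of 9 marker lists in each library on a log axis, T2 (left, red) and T1 (right, blue), with a line joining the libraries of a group. Hemoglobin stands at 4302 and 3282 at T2 and 6892 and 7359 at T1, and the T cell markers overlap between groups.

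The other marker lists were short, and none of their members passed the adjusted threshold. The B cell markers summed to 37.2 and 40.7 CPM (again without TMM scaling) at T2 and 57.9 and 53.9 CPM at T1. Of these, 1 of 4 was lower at an unadjusted p under 0.05 (4.21% over all genes). Goblet cell markers summed to 176 and 164 CPM at T2 and 216 and 222 CPM at T1, with 1 of 3 lower. For both of these lists the 2 T2 sums lay below the 2 T1 sums. The goblet cell gene agr2 had 138 and 101 CPM at T2, against 137 and 102 CPM at T1. Neuroepithelial and nerve markers summed to 11.9 and 11.2 CPM at T2 and 21.4 and 20.7 CPM at T1, with 1 of 3 lower. The vascular endothelium list had 0 of 11 members and the pillar cell and fibroblast list 0 of 7 at an unadjusted p under 0.05, and their sums overlapped between groups. Of 7 dendritic cell and monocyte markers 2 were higher and 0 lower (2.85% and 4.21% over all genes). The pavement cell markers had 1 of 6 higher, and one of the most abundant, RHCG (LOC106587392), an ammonia transporter gene, had 2608 and 3996 CPM at T2, against 3649 and 1597 CPM at T1. Of 5 ammonia transport genes 0 were at an unadjusted p under 0.05. The part of cell type content in the other differences was not tested.

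T cell markers mostly overlapped between the groups. The T cell marker cd3e had 42.0 and 98.8 CPM at T2, against 76.0 and 96.4 CPM at T1, and the list of 8 T cell markers had 0 genes at an unadjusted p under 0.05 in either direction. Nuclei gated on T cell markers were 0.326% and 7.32% of the T2 libraries and 1.59% and 3.83% of the T1 libraries, so the T2 libraries lay on either side of the T1 libraries (0.300% and 5.57% at T2 and 1.42% and 3.09% at T1 after thinning to 500 UMIs). These were 11 and 128 nuclei at T2 and 44 and 76 at T1. Of 18 genes of T cell receptor signalling none was below an unadjusted p of 0.05, and both T2 libraries were below both T1 libraries for 5 (17.9% over all genes), among them ptprc (CD45, 146 and 224 CPM at T2, against 247 and 273 CPM at T1) and cd8a (6.20 and 12.2 CPM at T2, against 13.6 and 16.3 CPM at T1). T2 replicate 1 was the lowest of the T2 and T1 libraries for both.

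Other leukocyte genes showed both directions. CD83 (LOC106605366), a marker of mature dendritic cells, had 60.6 and 65.4 CPM at T2, against 41.0 and 41.7 CPM at T1 (0.61 ± 0.20, SE, adjusted p 0.563, edgeR), and batf3, needed for a class of dendritic cells, had 7.66 and 10.4 CPM at T2, against 5.49 and 4.23 CPM at T1. flt3 had 32.5 and 42.7 CPM at T2, against 53.2 and 40.7 CPM at T1, and csf3r had 34.7 and 41.4 CPM at T2, against 79.2 and 51.5 CPM at T1. ebf1, a B cell factor also used in stromal cells, had 6.57 and 5.47 CPM at T2, against 10.7 and 14.7 CPM at T1. Of 27 interferon response genes 3 were higher and 2 lower at an unadjusted p under 0.05 (2.85% and 4.21% over all genes). gbp7 had 54.0 and 50.3 CPM at T2, against 23.7 and 27.0 CPM at T1 (1.04 ± 0.21, SE, adjusted p 0.231, edgeR), while GBP1 (LOC106582240) had 22.3 and 19.5 CPM at T2, against 43.0 and 30.0 CPM at T1, and irf4 had 2.92 and 7.04 CPM at T2, against 16.2 and 9.45 CPM at T1.

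In antigen presentation, the peptide transporter gene tap1 had 139 and 173 CPM at T2, against 119 and 101 CPM at T1. The list's median log2 fold change was 0.42 over 20 genes, with 1 higher and 1 lower at an unadjusted p under 0.05 (2.85% and 4.21% over all genes). The costimulatory receptor gene CD40 (LOC106572807) was the lower one, at 42.0 and 77.1 CPM at T2, against 87.0 and 104 CPM at T1. The class II chaperone gene cd74a had 3327 and 5648 CPM at T2, against 4500.5 and 2067 CPM at T1, with overlap. A further CD40 locus, LOC106572765, had 733 and 329 CPM at T2, against 145 and 557 CPM at T1, also with overlap.

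Barrier and surface genes of the epithelium were among those with higher levels at T2. Of 31 tight junction and barrier genes, 4 were higher and 0 lower at an unadjusted p under 0.05 (2.85% and 4.21% over all genes), none past the adjusted threshold, and both T2 libraries were above both T1 libraries for 12 (15.7% over all genes). CLDN4 genes encode claudins that seal epithelial junctions. CLDN4 LOC106612824 had 393 and 223 CPM at T2, against 196 and 109 CPM at T1 (1.01 ± 0.40, SE, adjusted p 0.658, edgeR), and CLDN4 LOC106581065 had 481 and 532 CPM at T2, against 388 and 187 CPM at T1. CLDN4 LOC106563812 had 553 and 806 CPM at T2, against 507 and 159 CPM at T1. An occludin-like gene (LOC106567754) had 206 and 204 CPM at T2, against 155 and 122 CPM at T1. T1 replicate 2 was the lowest of the T2 and T1 libraries for all 4. The count of 4 was 0 without T1 replicate 2, 12 without T1 replicate 1, and 2 without T2 replicate 1 or T2 replicate 2.

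Mucins, which form the mucus layer, went both ways. Mucin-5AC-like LOC106602669 had 2161 and 2977 CPM at T2, against 1699.9 and 733 CPM at T1 (1.08 ± 0.39, SE, adjusted p 0.629, edgeR), whereas mucin-5AC-like LOC106600198, used as a goblet cell marker, had 40.1 and 62.0 CPM at T2, against 89.8 and 95.5 CPM at T1 (-0.85 ± 0.23, adjusted p 0.438, edgeR). The CUB and zona pellucida-like domain gene LOC106562604 had 935 and 715 CPM at T2, against 524 and 273 CPM at T1. Among keratins, KRT14 (LOC106587764), of basal epithelium, had 486 and 345 CPM at T2, against 139 and 277 CPM at T1, while the desmosome genes JUP (LOC106607413) and junction plakoglobin-like (LOC106600820) were the 2 lower members of 28 at an unadjusted p under 0.05, with the plakoglobin-like gene at 6.93 and 4.43 CPM at T2, against 14.7 and 12.4 CPM at T1. Of 26 cell cycle genes, 2 were higher and 0 lower at an unadjusted p under 0.05 (2.85% and 4.21% over all genes). They were top2a (70.1 and 55.8 CPM at T2, against 37.3 and 39.4 CPM at T1) and rrm2 (29.9 and 21.6 CPM at T2, against 14.2 and 13.7 CPM at T1). For 10 cell cycle genes both T2 libraries were above both T1 libraries (15.7% over all genes). The count of 2 was 0 without T2 replicate 1 and 4 without T1 replicate 2.

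**Figure D5:**
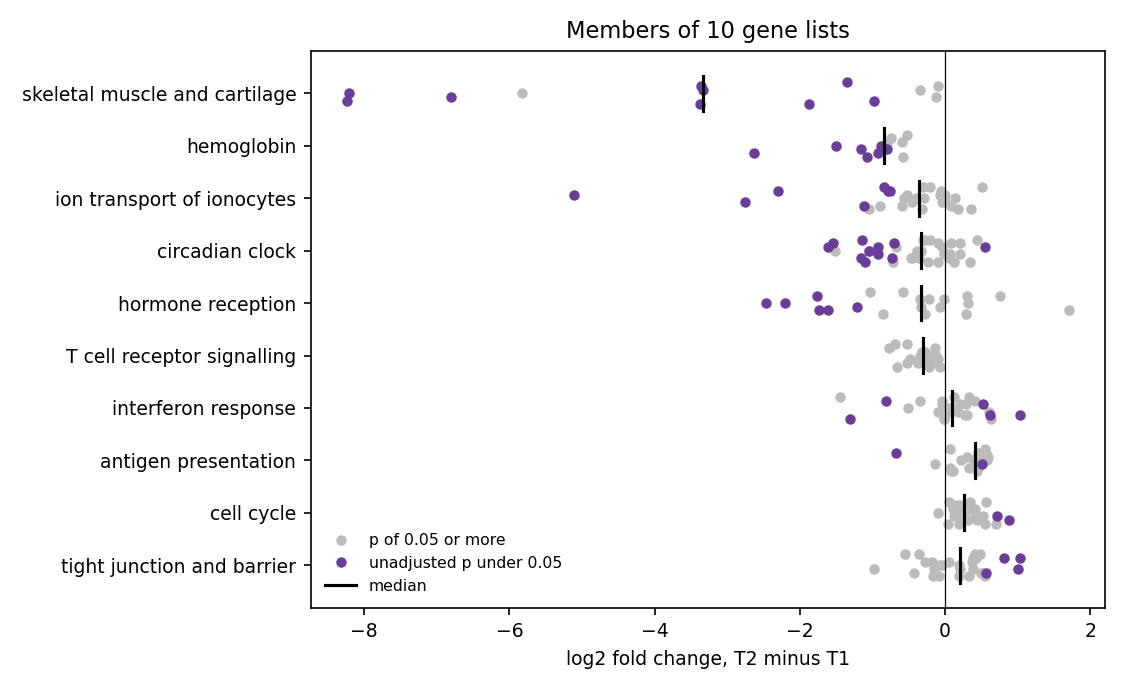
Log2 fold change (T2 minus T1) of each tested member of 10 gene lists, purple at an unadjusted p under 0.05 and grey otherwise, with the median as a black bar and no member past an adjusted p of 0.05. Medians run from -3.34 for skeletal muscle and cartilage to 0.42 for antigen presentation, and fitted values below -5 belong to genes without UMIs in the T2 libraries.

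Collagens and matrix genes gave 3 lower and 0 higher of 49 at an unadjusted p under 0.05 (4.21% and 2.85% over all genes). The cartilage collagen gene collagen alpha-1(II)-like (LOC106575716), also on the muscle and cartilage list, had 14.96 and 9.12 CPM at T2, against 30.9 and 29.6 CPM at T1 (-1.35 ± 0.28, SE, adjusted p 0.279, edgeR). COL27A1 had 35.8 and 14.9 CPM at T2, against 41.3 and 62.9 CPM at T1, and FN1 (fibronectin) had 28.8 and 23.2 CPM at T2, against 52.3 and 30.3 CPM at T1. Heat shock genes gave 3 lower and 0 higher of 11. The chaperone gene hs90a had 6.20 and 5.47 CPM at T2, against 14.7 and 10.4 CPM at T1, and HSPA12A and a heat shock protein beta-11-like gene were the others, each with under 20 UMIs at T2. Of 156 ribosomal protein genes 1 was lower, and of 60 genes of the mitochondrial respiratory chain 2 were lower, with atp5if1b at 17.5 and 14.1 CPM at T2, against 24.8 and 23.5 CPM at T1, and COX6A1 without UMIs at T2. tph1a, the serotonin synthesis gene of neuroepithelial cells, had 0 and 0 UMIs at T2 and 13 and 8 UMIs at T1, 7.04-fold lower against the floor of 3 UMIs.

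The remaining genes that the study names for gill cell types did not pass an unadjusted p of 0.05. Those of transport and barrier cells come first. The ammonia transporter gene rhbg had 816 and 1091 CPM at T2, against 1148 and 642 CPM at T1. rhag (LOC106571195), of the same family, had 206 and 85.2 CPM at T2, against 206 and 155 CPM at T1. rhcg, from the ammonia transport list, had 571 and 487 CPM at T2, against 659 and 921 CPM at T1. These transporters move ammonia out of the gill, and the first 2 overlapped between groups. The lipid transporter gene abca12 had 592 and 682 CPM at T2, against 789 and 519 CPM at T1. The occludin gene ocln had 345 and 463 CPM at T2, against 368 and 248 CPM at T1. CLDN4 LOC106612819 had 257 and 395 CPM at T2, against 322 and 133 CPM at T1. All 3 of these overlapped as well. The lysosomal genes were close to level. acp2 had 33.6 and 33.6 CPM at T2, against 37.6 and 40.1 CPM at T1. lamp2 had 191 and 219 CPM at T2, against 177 and 189 CPM at T1.

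NOTCH1 encodes a receptor for signals between neighbouring cells. NOTCH1 LOC106585423 had 96.0 and 85.2 CPM at T2, against 72.2 and 86.0 CPM at T1. NOTCH1 LOC106579992 had 55.1 and 50.8 CPM at T2, against 41.9 and 80.5 CPM at T1. The NOTCH1-like locus LOC106601274 had 42.7 and 32.0 CPM at T2, against 22.2 and 31.6 CPM at T1. The vessel and matrix genes came out as follows. The basement membrane collagen gene COL4A1 LOC106577877 had 374 and 656 CPM at T2, against 633 and 569 CPM at T1. A second locus, col4a1 LOC106586666, had 12.8 and 11.2 CPM at T2, against 19.4 and 14.0 CPM at T1. The lymphatic marker prox1 had 5.84 and 10.9 CPM at T2, against 11.3 and 11.4 CPM at T1. The last 2 genes had both T2 libraries below both T1 libraries. The integrin gene itgae, a marker of lymphocytes within epithelium, had 65.0 and 140.2 CPM at T2, against 122 and 135 CPM at T1. The chemokine gene cxl10 had 39.0 and 42.7 CPM at T2, against 57.2 and 46.6 CPM at T1. The cytokine receptor gene csf2rb had 4.74 and 5.99 CPM at T2, against 4.91 and 5.54 CPM at T1. Among these leukocyte genes only cxl10 did not overlap. Mucin-5AC-like LOC106577588 had 60.2 and 45.1 CPM at T2, against 57.5 and 41.7 CPM at T1. The nucleoplasmin-like ANO39 locus had 293 and 339.5 CPM at T2, against 414 and 271 CPM at T1. The list of genes that the study names held 39 genes, and 0 passed the adjusted threshold. At an unadjusted p under 0.05, 5 were higher and 8 lower (2.85% and 4.21% over all genes). The study chose them in part on these libraries.

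Some of the clearest genes were also called within gated nuclei. Gated nuclei are part of the nuclei summed above, so these values are not separate evidence. In ionocyte-gated nuclei, 2 of 16703 genes tested passed an adjusted p of 0.05 (0.012%), both higher at T2, and neither has a name. LOC106598333 had 178 and 165 CPM at T2, against 4.22 and 1.35 CPM at T1 (6.02 ± 0.53, SE, adjusted p 2.89e-05, edgeR), and LOC106611944 had 178 and 167 CPM at T2, against 27.4 and 28.3 CPM at T1 (2.62 ± 0.35, adjusted p 0.00605). DESeq2 called 13 of the 4721 genes it gave an adjusted p (0.275%). In T cell-gated nuclei 0 of 130 genes passed with edgeR and 0 with DESeq2, and 3 were at an unadjusted p under 0.05 (2.31%), at a depth of 11 nuclei in T2 replicate 1. The shared estimate of spread also drew on T4 libraries with 7 and 3 such nuclei, so the lack of calls says little about T cells.

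The pavement cell markers gated 69.6% and 48.3% of nuclei at T2 and 64.0% and 36.8% at T1, so this gate was not specific to a cell type. In it, 11 of 20988 genes passed (0.0524%), 8 higher (0.0381%) and 3 lower (0.0143%), and DESeq2 called 25 (0.119%). IRGC was the only named gene among the 11, with 16.3 and 12.5 CPM at T2, against 52.8 and 45.7 CPM at T1 (-1.79 ± 0.26, SE, adjusted p 0.0400, edgeR). LOC106598560 had 64.7 and 62.5 CPM in these nuclei at T2, against 8.10 and 9.56 CPM at T1, but 9.38 and 7.26 CPM in ionocyte-gated nuclei at T2, against 6.33 and 6.74 CPM at T1. LOC106598333 was spread more evenly, with 131 and 204 CPM (not TMM-scaled) at T2 even in nuclei that passed none of the 3 gates, against 0 and 0 CPM at T1. The part of free RNA in these levels was not tested. With nuclei of 200 or more and fewer than 2500 genes the gate's count was 4.

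Of the hormone reception genes, 4 of 15 tested were lower at an unadjusted p under 0.05 in ionocyte-gated nuclei and 5 of 17 in pavement cell-gated nuclei, and 0 were higher in either. TSC22D3 (LOC106604170) had 18.8 and 41.1 CPM in ionocyte-gated nuclei at T2, against 344 and 75.5 CPM at T1. In pavement cell-gated nuclei it had 49.9 and 72.8 CPM at T2, against 556 and 137 CPM at T1. In nuclei that passed none of the gates it had 50.05 and 67.5 CPM (not TMM-scaled) at T2, against 450.3 and 99.6 CPM at T1. T cell-gated nuclei held too few UMIs for these genes to be tested, and there TSC22D3 overlapped between groups, with 1 and 5 UMIs at T2 and 14 and 2 UMIs at T1, as did FKBP5 (LOC106565346). Clock genes at an unadjusted p under 0.05 numbered 8 lower and 0 higher of 31 in ionocyte-gated nuclei, where 3.84% of all genes were lower and 2.36% higher, and 9 lower and 1 higher of 35 in pavement cell-gated nuclei, where 3.97% were lower and 2.42% higher. By the same measure 9 of 11 listed hemoglobin genes were lower in ionocyte-gated nuclei and 7 of 12 in pavement cell-gated nuclei, although neither gate selects blood cells.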

How the data were processed

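Gill of 8 samples was profiled by single-nuclei RNA-seq with the 10x 3′ v3 kit, on nuclei isolated through a sucrose gradient. The authors deposited raw counts of UMIs, a table of genes by nuclei for each sample. Reads were counted with Cell Ranger (3.1.0 in the labels' protocol, 3.0.1 in the submitters' processing notes) on the ICSASG_v2 assembly with NCBI annotation. Each table lists a gene only if at least 3 nuclei hold it, as found in the files, and genes not listed were taken as 0. No nuclei were removed here, and doublets were not called.

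UMIs were summed over all nuclei of a sample and tested with edgeR 4.0.16 (R 4.3.3): TMM factors, filterByExpr with a minimum count of 10, and the quasi-likelihood test in a fit of all 8 samples (4 residual degrees of freedom), T2 minus T1, Benjamini-Hochberg adjusted over all genes tested, called under 0.05. Standard errors are the log2 fold change divided by the square root of F. DESeq2 1.42.0 was an alternative. The same test was run on nuclei gated by 2 or more UMIs of a marker list and more of these than of the other lists. Scripts were tested on simulated data. There DESeq2 made more false calls than edgeR over all nuclei and in pavement cell-gated nuclei, and as many in ionocyte-gated nuclei. Of 27587 locus identifiers 5702 were given a name, from RefSeq (Ssal_v3.1 table, names only) or the study's supplementary tables.

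The groups compared and the 28 gene lists were chosen with earlier results of these data known. Named genes were, by rule, the called and named genes with the largest changes, up to 4 members of each list with the lowest p, every gene the study names for cell types, and up to 5 called and named genes per direction in each gate. Genes outside the rule are marked where they appear, and some genes within it are not reported here. Floors cover counting error only, not UMIs of genes left unlisted, so folds against a floor are not lower bounds. Overlapping or near-identical loci, frequent after the salmonid genome duplication, could share reads. Replicate numbers were checked for pairing: deviations of same-numbered samples correlated at r from -0.0576 to 0.211. This shows no clear pairing, but weak correlations cannot exclude it. The alternatives tried were a threshold of 0.01, RLE factors, no filter, only the T2 and T1 samples, nuclei of 200 or more and under 2500 genes, hemoglobin genes left out, a replicate block, a gate of 3 UMIs or on RHCG loci alone, thinning to 500 UMIs, and leaving out each sample.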

Additional observations from a re-analysis of the deposited data

How the results depend on the processing

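The count of 3 genes over all nuclei moved with the processing, and the cause was not tested. It was 1 at an adjusted p of 0.01, 58 with DESeq2, 451 with no filter on low counts, 7 with only the T2 and T1 samples, 8 with a replicate block and 11 with only those samples and a replicate block (added after seeing the data). RLE factors, nuclei of 200 or more and under 2500 genes and leaving out hemoglobin genes gave 3, 4 and 3. Leaving out a T2 or T1 sample gave 2 to 11, with the lone sample of a group assumed to vary like the other groups.

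In ionocyte-gated nuclei the count of 2 was 1 with nuclei of 200 or more and under 2500 genes, 7 with a replicate block and 13 with DESeq2, and 1 to 8 leaving out a sample. In pavement cell-gated nuclei the count of 11 was 4 with nuclei of 200 or more and under 2500 genes and 25 with DESeq2, 15 with a replicate block, 12 with a gate on RHCG loci alone (added after seeing the data), and 5 to 23 leaving out a sample. In T cell-gated nuclei it was 0 to 1 leaving out a sample.

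Members at an unadjusted p under 0.05 changed as follows. Hemoglobin (7 lower) gave 11 with no filter and 4 with nuclei of 200 or more and under 2500 genes, ion transport (7 lower) 11 with no filter, muscle and cartilage (9 lower) 5 with nuclei of 200 or more and under 2500 genes, and tight junction (4 higher) 1 with only the T2 and T1 samples and 1 with nuclei of 200 or more and under 2500 genes. Leaving out a sample gave clock 2 to 11, hormone reception 0 to 7, hemoglobin 1 to 6, ion transport 3 to 8, muscle and cartilage 5 to 12, tight junction 0 to 12 and cell cycle 0 to 4. Thinning changed the T2 minus T1 difference in mean share by less than the pooled SD of replicates for all 3 gates, although single libraries moved by more (the ionocyte share of T2 replicate 2 was 8.20% thinned and 11.2% unthinned).

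Of 130 genes followed, 118 kept their direction under every setting. Reversed values were -0.049 for mucin-5AC-like LOC106577588 with nuclei of 200 or more and under 2500 genes, and leave-one-out log2 ranges of -0.31 to 0.29 for abca12, -1.04 to 0.19 for cd3e, -0.10 to 1.87 for CD40 LOC106572765, -0.0042 to 1.11 for cd74a, -0.69 to 0.12 for COL4A1 LOC106577877, -0.14 to 0.19 for csf2rb, -0.99 to 0.12 for itgae, -0.14 to 0.33 for mucin-5AC-like LOC106577588, -0.61 to 0.34 for NOTCH1 LOC106579992, -0.39 to 0.22 for ANO39, -1.09 to 0.19 for rhag and -0.27 to 0.57 for rhbg.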
